A study of Mus musculus with 2 samples.

Results

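The genes described here are the mouse genes of cholesterol import at the mitochondrial outer membrane and of the proteins that shape the contact between its 2 membranes. They were taken by symbol as Tspo, Tspo2, Dbi, Acbd3, Vdac1, Vdac2, Vdac3, Atad3a, Mfn2 and Opa1, and all 10 were found among the 55536 annotated genes. Total RNA was sequenced from whole adrenal glands of 1 group of mice, as 2 labelled biological replicates, named mouse 2 and mouse 1 below by their replicate number. Both were adult females aged 8 to 10 months from The Jackson Laboratory, bred by crossing 5xFAD mice, a transgenic Alzheimer's disease model, with the wild-derived CAST strain. Whether each animal carried the transgenes is not stated in the labels. Both libraries bear 1 donor identifier, so their status as separate animals rests on the replicate numbers, and the spread between them may be technical. With a single group there was no contrast between conditions, and no test was made.

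Steroid hormones are made from cholesterol, which must cross from the outer to the inner mitochondrial membrane before the enzyme CYP11A1 can cut its side chain. The acute regulator STAR drives that step in adrenal and gonadal cells, and a larger assembly around the translocator protein TSPO, the voltage-dependent anion channels (VDAC) and the membrane contact protein ATAD3A has been proposed to take part. The role of TSPO is disputed, since mice lacking it still make steroids. The list is one of process and not of place: Atad3a and Opa1 encode proteins of the inner membrane, and Acbd3 encodes a protein found mainly at the Golgi.

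Gene level was measured as TPM, an abundance corrected for transcript length and sequencing depth. Each library was quantified by the authors from alignments to the transcriptome, and again directly from the reads against a transcript index. These are called the alignment-based and the direct quantification, and values are alignment-based unless stated. Expected counts in genes summed to 32192201 for mouse 2 and to 36558609 for mouse 1. All 8 cortex markers and all 7 chromaffin cell markers of the medulla reached 1 TPM in both mice. No liver, kidney or skeletal muscle marker did, of 4 each, and Umod, Slc34a1, Slc12a1 and Myh4 were listed at 0 in both. The liver marker Alb passed 1 TPM in mouse 2 alone, with 1.89 TPM on 113 expected counts, against 0.46 TPM on 36 in mouse 1. Macrophage (8 of 8), endothelial (5 of 5) and adipocyte (7 of 7) markers also reached 1 TPM in both mice, and Schwann and sustentacular cell markers less completely (2 of 5).

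Of the 10 genes, 9 reached 1 TPM in both mice, and Tspo2 did not. For comparison, 23.7% of all annotated genes and 54.1% of the nuclear protein-coding genes did so. All 9 also stood above 10.3 TPM, the median of the 11913 nuclear protein-coding genes at 1 TPM or more. Together the 10 genes summed to 836 TPM in mouse 2 and 720.1 TPM in mouse 1. Dbi alone made up 30.1% of that sum in mouse 2 and 29% in mouse 1, and Tspo made up 17.7% and 19.1%. In descending order of mean TPM the genes were Dbi, Vdac1, Tspo, Vdac3, Vdac2, Mfn2, Atad3a, Opa1, Acbd3 and Tspo2. The ranges of the mice overlapped between Vdac1 and Tspo, between Vdac3 and Vdac2, between Vdac2 and Mfn2, and between Atad3a and Opa1. That overlap is across the mice, and the remaining neighbours did not overlap. Within a mouse, the higher gene of an overlapping pair had 1.044 to 1.155 times the TPM of the lower. The order was the same within each mouse. It was also the same in the direct quantification except that Tspo there stood above Vdac1.

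**Figure D1:**
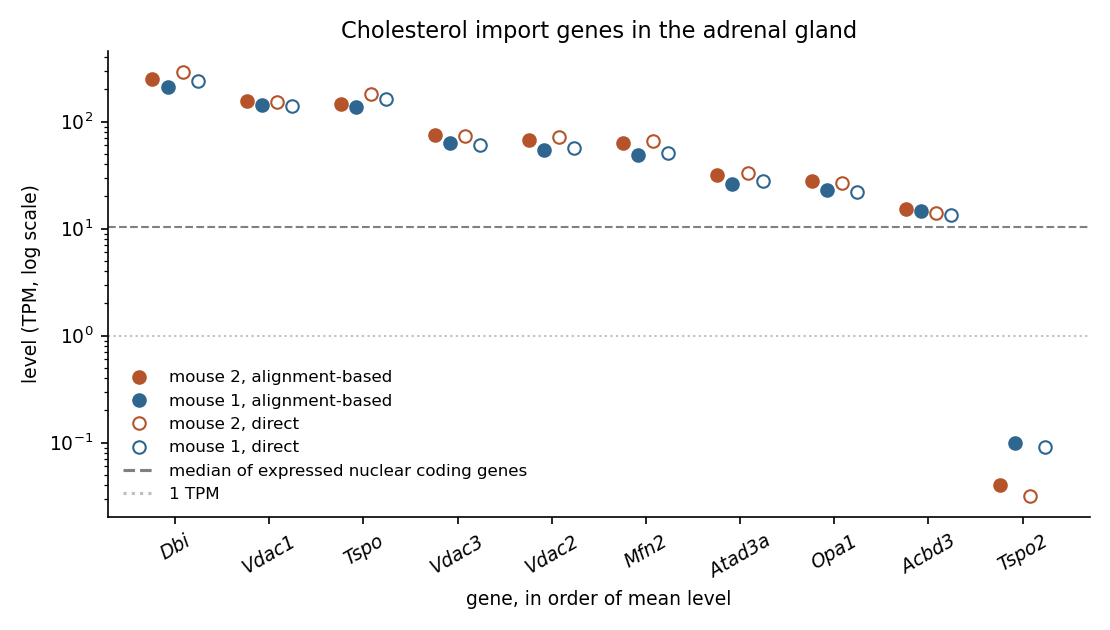
Level of each gene in TPM on a log axis, per mouse (orange, mouse 2; blue, mouse 1), with filled points for the alignment-based and open points for the direct quantification. The dashed line marks the median of 10.3 TPM of expressed nuclear protein-coding genes; 9 genes lie above it and Tspo2 lies below 1 TPM.

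Dbi, the diazepam binding inhibitor or acyl-CoA-binding protein, is a ligand of TSPO and was the most abundant of the set (chr1:120113280-120121078, minus strand, mm10). It reached 252 TPM in mouse 2 and 209 TPM in mouse 1, on 3820 and 3955 expected counts, with a mean of 230.4 ± 30.5 TPM (SD, n = 2). That placed it at rank 157 of 22015 nuclear protein-coding genes. Directly quantified, it had 291 TPM in mouse 2 and 238 TPM in mouse 1. Per unit length there was 1.71 times as much Dbi as Tspo RNA in mouse 2 and 1.51 times as much in mouse 1.

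Tspo encodes the cholesterol-binding translocator protein of the outer membrane (chr15:83563592-83574203, plus strand). Its level was 148 TPM in mouse 2 and 138 TPM in mouse 1, on 3551 and 4132 expected counts, with a mean of 143 ± 6.91 TPM (SD, n = 2) and rank 298. Direct quantification gave higher levels, of 179 and 164 TPM for mouse 2 and mouse 1. Star, the acute regulator, was 38.9 times as abundant in TPM as Tspo in mouse 2 and 37.2 times in mouse 1. Tspo is also expressed by macrophages. The 8 macrophage markers summed to 183 TPM in mouse 2 and 143 TPM in mouse 1, led by Cd74 and C1qa, with a median log2 ratio of 0.092 after the scaling described below, where Tspo itself lay at -0.084. The part of each cell type in the Tspo level was not tested. The gene overlaps Mcat on the other strand, with 778 expected counts in mouse 2 and 787 in mouse 1, and whether strand was used in counting is not given in the sources used here.

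Tspo2, the paralog known from maturing red blood cells, was scarce (chr17:48447907-48451522, minus strand). It had 1 expected count in mouse 2 and 2 in mouse 1, or 0.04 and 0.10 TPM, both within the 3 counts that an observed count of 0 would still allow. That limit equals 0.0932 CPM in mouse 2 and 0.0821 in mouse 1 and covers counting error only, so no ratio between the mice is given. Directly quantified, Tspo2 had 0.032 TPM on 1 estimated count in mouse 2 and 0.092 TPM on 11.3 estimated counts in mouse 1, the last above that limit. Most of its TPM in mouse 1, 71.8%, was there given to Tspo2-202, a transcript with a retained intron. Red blood cell markers were present, at a sum of 409 TPM in mouse 2 and 747 TPM in mouse 1, led by the globin genes. Of those 10 markers, 5 reached 1 TPM in both mice, and Epb42 was listed at 0 in both.

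The paralogs can be compared over the stretch that carries the cholesterol-binding motif of TSPO (CRAC: leucine or valine, 1 to 5 residues, tyrosine, 1 to 5 residues, lysine or arginine). The coding sequences of Tspo-201 (169 codons) and Tspo2-201 (162 codons) were identical at 297 of 526 aligned positions, or 56.5%. Codons 147 to 158 of Tspo-201 (chr15:83573887-83573922) hold the last of 3 matches to the pattern, at codons 150 to 156. Matches were counted by their first residue, so overlapping ones count separately, and the valine codon just before starts another of the 3. The stretch is shown with the aligned one of Tspo2-201 (chr17:48448648-48448683), since the pattern matched within it in the abundant gene and not in the scarce one. Capitals mark the 22 of 36 bases that are identical, from GENCODE M21 transcripts.
Tspo-201: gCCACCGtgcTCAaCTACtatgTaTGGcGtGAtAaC
Tspo2-201: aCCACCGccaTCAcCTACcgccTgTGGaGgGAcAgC
The Tspo2 stretch was in frame and did not match the pattern within the bases shown. Its whole coding sequence held 2 matches, counted in the same way, and whether either runs into this stretch from upstream was not tested. The pattern is common: 65.3% of the 954 mouse coding sequences of 450 to 550 bases held at least 1 match.

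Acbd3, an acyl-CoA-binding-domain protein that binds TSPO and the regulatory subunit of protein kinase A, was the lowest of the 9 expressed genes (chr1:180726043-180754204, plus strand). It reached 15.3 TPM in mouse 2 and 14.7 TPM in mouse 1, on 1693 and 2022 expected counts. The mean was 15 ± 0.389 TPM (SD, n = 2), at rank 4413, and the direct levels were 13.9 and 13.4 TPM in mouse 2 and mouse 1. Dbi was 16.5 times as abundant in TPM in mouse 2 and 14.2 times in mouse 1. Among the 6 other genes of the acyl-CoA-binding family, 4 reached 1 TPM in both mice. The highest were Acbd4 at 38.8 ± 6.34 TPM, the peroxisome-tethering gene Acbd5 at 36.8 ± 3.06 TPM and Eci2, an enoyl-CoA isomerase, at 32.4 ± 1.87 TPM. Each of these stood above Acbd3 in both mice. Dbil5, a testis-type homolog of Dbi, was listed at 0 in both.

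The VDAC genes encode the pores through which ions and metabolites cross the outer membrane. Vdac1 was the main form (chr11:52360860-52389397, plus strand), with 155 TPM in mouse 2 and 144 TPM in mouse 1 on 8851 and 9952 expected counts, and a mean of 149 ± 7.69 TPM (SD, n = 2). Vdac3 (chr8:22577075-22593813, minus strand) had 75 TPM in mouse 2 and 63.01 TPM in mouse 1, on 3152 and 3258 expected counts, with a mean of 69 ± 8.48 TPM. Vdac2, whose protein also binds the cell death factor BAK (chr14:21825238-21845879, plus strand), had 67.9 TPM in mouse 2 against 54.6 TPM in mouse 1. Its mean was 61.2 ± 9.41 TPM, on 3120 and 3071 expected counts. Within the family, Vdac1 made up 52.0% of the summed TPM for mouse 2 and 55.05% for mouse 1, Vdac3 25.2% and 24.1%, and Vdac2 22.8% and 20.9%. In the direct quantification the shares were 51.1% and 54.3% for Vdac1, 24.7% and 23.5% for Vdac3, and 24.2% and 22.1% for Vdac2. Vdac1 led in each mouse by either quantification, whereas Vdac3 and Vdac2 lay close together.

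The 3 channels can be told apart by sequence. The leading transcripts Vdac1-202, Vdac2-201 and Vdac3-201 have 849, 885 and 849 coding bases without the stop codon, and share 6 exons of equal length, 693 bases in all. Over those exons Vdac1-202 and Vdac2-201 were identical at 71.0% of bases, Vdac1-202 and Vdac3-201 at 65.2%, and Vdac2-201 and Vdac3-201 at 71.1%. The exon of 53 bases had the lowest identity across all 3, with 28 bases in common, and is shown as the part of equal length in which these genes differ most. It lies at chr11:52376648-52376700 in Vdac1, chr14:21837991-21838043 in Vdac2 and chr8:22582083-22582135 in Vdac3, and capitals mark the bases identical in all 3.
Vdac1-202: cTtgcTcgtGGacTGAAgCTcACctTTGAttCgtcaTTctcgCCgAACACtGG
Vdac2-201: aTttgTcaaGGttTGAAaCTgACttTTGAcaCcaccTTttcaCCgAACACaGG
Vdac3-201: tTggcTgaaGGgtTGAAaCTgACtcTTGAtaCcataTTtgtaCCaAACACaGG
No pair of the 3 genes matched at 90% identity or more over 100 bases or more. Pseudogenes did match at that level, and counts split with them are uncertain. Vdac3-ps1, 99.5% identical to Vdac3-201 over 853 bases, was given 109.6 expected counts in mouse 2 and 115 in mouse 1, or 3.48% and 3.51% of the counts of Vdac3. In the direct quantification it had 14.1 and 12.9 estimated counts. Gm7591, 97.07% identical to Vdac3-201 over 853 bases, was given 15.8 expected counts in mouse 2 and 18.6 in mouse 1. Its direct estimates were 17.2 and 17.25. Gm7832, 97.05% identical to Vdac2-201 over 881 bases, was given 43.3 expected counts in mouse 2 and 52.6 in mouse 1, or 1.39% and 1.71% of the counts of Vdac2. The copies of Vdac1 (Gm13360, Gm15502 and Gm8459), Dbi (Gm12222) and Atad3a (Gm4740) had at most 4.14 expected counts in a library. Vdac2 overlaps Comtd1 on the other strand, which had 599 expected counts in mouse 2 and 668 in mouse 1.

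Atad3a encodes an AAA+ ATPase anchored in the inner membrane that reaches toward the outer membrane (chr4:155740641-155761093, minus strand). It reached 31.9 TPM in mouse 2 and 25.9 TPM in mouse 1, on 1642 and 1682 expected counts, with a mean of 28.9 ± 4.29 TPM (SD, n = 2). Its direct levels were 33.2 and 28.0 TPM for mouse 2 and mouse 1. Mfn2, an outer membrane GTPase that fuses mitochondria and tethers them to the endoplasmic reticulum (chr4:147873599-147904704, minus strand), had 63.5 TPM in mouse 2, against 48.4 TPM in mouse 1. Its mean was 55.9 ± 10.7 TPM on 7113 and 7296 expected counts. Mfn2 was 2.33 times as abundant in TPM as its paralog Mfn1 in mouse 2 and 1.81 times in mouse 1. Opa1, the GTPase that fuses inner membranes and holds cristae in shape (chr16:29579334-29654884, plus strand), had 27.9 TPM in mouse 2, against 22.8 TPM in mouse 1. Its mean was 25.3 ± 3.64 TPM on 3990 and 3974 expected counts. Mfn2 exceeded Opa1 2.27 times in mouse 2 and 2.13 times in mouse 1.

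The share of each transcript in its gene (IsoPct, a percent of the gene's TPM) showed which forms carried these levels. One transcript took over 90% of the mean alignment-based level of Tspo, Dbi, Vdac3 and Acbd3. Vdac1-202 took 84.1% in mouse 2 and 80.3% in mouse 1. The second Vdac1 form, Vdac1-201, starts from another first exon (chr11:52374263-52374368) and took 14.9% and 18.9%. Both quantifications placed these forms alike, with 81.05% and 78.9% for Vdac1-202 in the direct one. Vdac2 was split between Vdac2-201, at 53.3% in mouse 2 and 53.5% in mouse 1, and Vdac2-209, at 39.3% and 28.1%. A further form, Vdac2-207, whose annotated coding sequence has no stop codon, was listed at 0 in mouse 2 and at 10.07% in mouse 1, against 15.9% and 22.8% in the direct quantification. The split of Vdac2 was thus not settled between the mice or between the quantifications.

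For the TSPO ligand and for TSPO itself the transcript split changed with the quantification. Their gene levels differed by less than 1.5-fold but were the furthest apart of the 9 genes. The mean log2 ratio of alignment-based over direct TPM was -0.20 for Dbi and -0.26 for Tspo. Dbi-201, with 261 coding bases, took 88.2% in mouse 2 and 94.9% in mouse 1 by alignment, but 38.0% and 57.8% directly. Dbi-202, which has another first exon (chr1:120119895-120120138) and 189 coding bases, took 9.72% and 3.31% by alignment, but 59.8% and 40.1% directly. Dbi was the only one of the 9 genes whose leading transcript changed with the quantification in the mean of the mice, and in mouse 1 alone Dbi-201 still led. Tspo-201 took 98.2% in mouse 2 and 99.7% in mouse 1 by alignment, against 64.4% and 67.1% directly. The remainder of Tspo went to Tspo-202, which has a first exon of its own (chr15:83563875-83564088), 308 coding bases and no annotated stop codon. Mfn2-204 showed a smaller gap of the same kind, with 74.8% in mouse 2 and 82.0% in mouse 1 by alignment, against 52.5% and 50.2% directly. The partial transcript Mfn2-207 took 12.3% and 8.79% by alignment, against 27.0% and 19.1% directly. Mfn2-203, with the same 2271 coding bases as Mfn2-204, took 0.89% in mouse 2 and 2.25% in mouse 1 by alignment, against 11.45% and 21.02% directly.

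**Figure D2:**
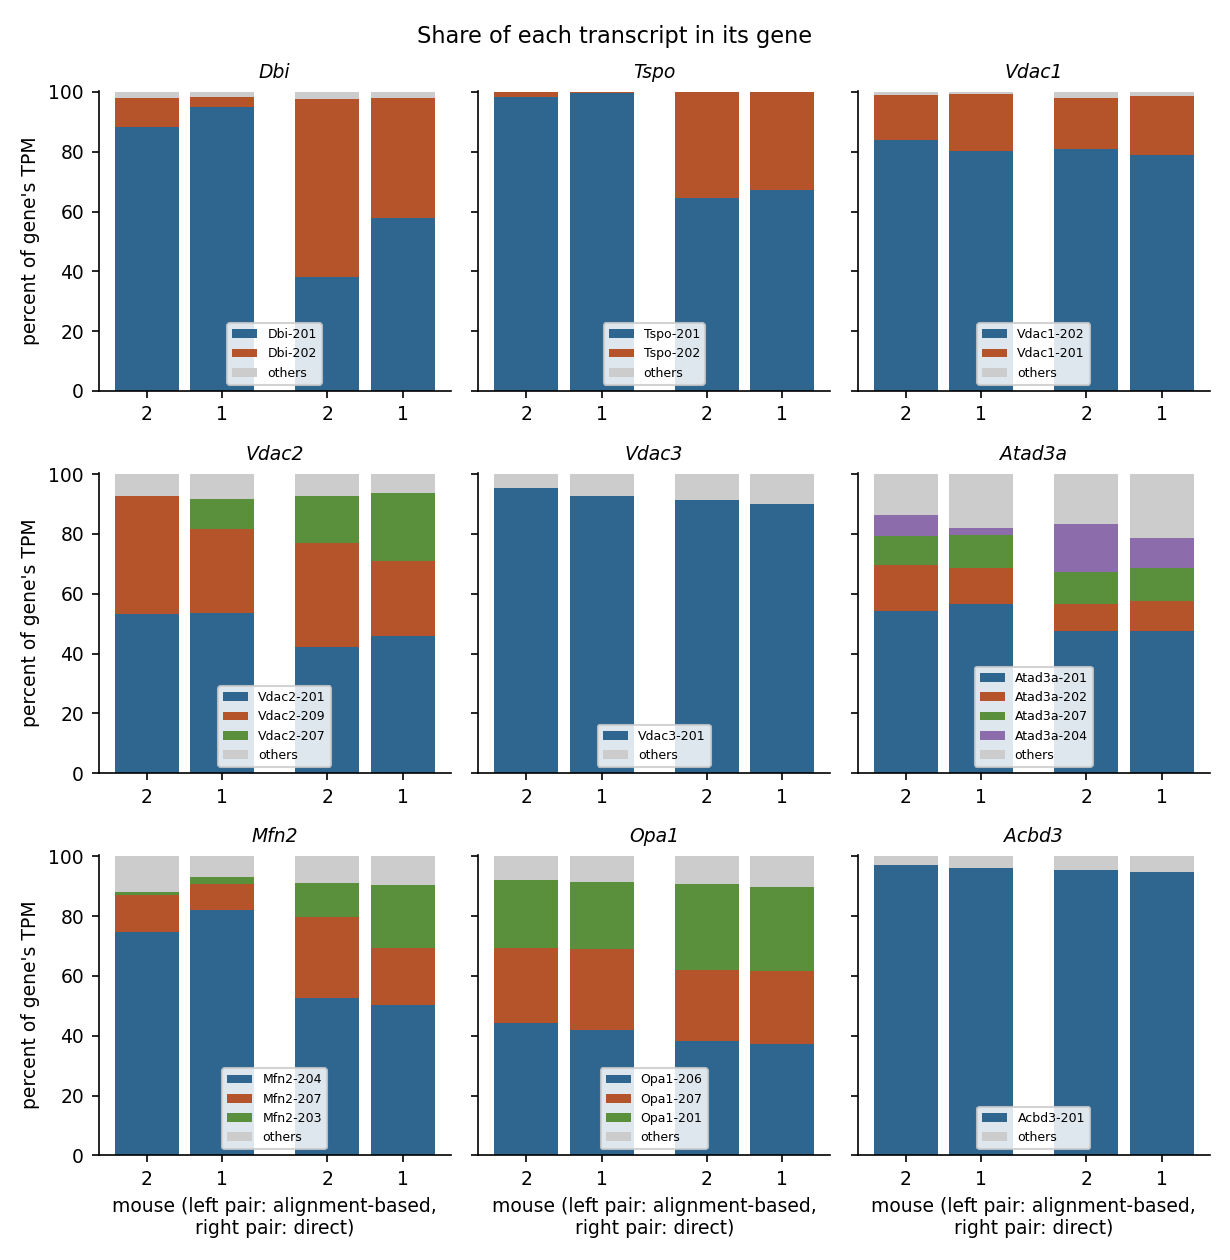
Percent of each gene's TPM assigned to its transcripts, for mouse 2 and mouse 1 in the alignment-based (left pair of bars) and the direct quantification (right pair); transcripts with a mean of at least 10% in either are coloured and the rest are grey. The 2 pairs look alike for Vdac1, Vdac3 and Acbd3 and differ most for Dbi, where Dbi-201 took 88.2% in mouse 2 by alignment and 38.0% directly.

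Among the 9 genes, Atad3a had the largest part of its TPM outside coding transcripts. Atad3a-201, its only transcript annotated as protein-coding, took 54.4% in mouse 2 and 56.6% in mouse 1. These shares are corrected for length, and Atad3a-201 has 2413 bases against 497 to 854 for the other transcripts. Of the expected counts of the gene, Atad3a-201 held 1320 of 1642 in mouse 2 and 1378 of 1682 in mouse 1, a larger part. Transcripts with a retained intron took 35.2% in mouse 2 and 35.3% in mouse 1, among them Atad3a-202 at 15.3% and 12.2% and Atad3a-207 at 9.71% and 11.0%. Transcripts annotated for nonsense-mediated decay took the remaining 10.4% and 8.14%. In the direct quantification the coding share was lower, 47.5% in mouse 2 and 47.7% in mouse 1, and the decay class was larger, 23.2% and 22.3%. Of the 11913 expressed nuclear protein-coding genes, 11.2% had a coding share at or below that of Atad3a, and the median was 90.4%. Each of the other 8 genes had more than 93% of its alignment-based level in coding transcripts in both mice.

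Opa1 had the lowest share in its leading form among the 9 genes. Opa1-206 took 44.4% in mouse 2 and 41.9% in mouse 1, Opa1-207 25.05% and 27.0%, and Opa1-201 22.7% in both. Directly, Opa1-206 took 38.4% and 37.15%, Opa1-207 23.7% and 24.5%, and Opa1-201 28.9% and 28.1%, so the order of the last 2 was reversed. These forms differ in their 3′ ends and in 2 short exons near the region where OPA1 is cut by the proteases YME1L1 and OMA1. An exon of 54 bases at chr16:29588823-29588876 is present in Opa1-201, an exon of 111 bases at chr16:29597586-29597696 is present in Opa1-207, and Opa1-206 has neither. Both exons are shown in capitals with 12 bases of the neighbouring exons, because they are among the features that separate the forms measured here.
Opa1-201: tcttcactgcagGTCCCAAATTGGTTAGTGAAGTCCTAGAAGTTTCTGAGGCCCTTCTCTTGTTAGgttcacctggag
Opa1-207: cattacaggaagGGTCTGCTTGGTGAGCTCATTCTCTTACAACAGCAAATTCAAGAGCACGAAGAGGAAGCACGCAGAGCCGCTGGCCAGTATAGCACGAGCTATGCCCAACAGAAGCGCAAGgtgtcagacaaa
Over the 7 transcripts that span the region, forms with the exon of 54 bases took 28.3% in mouse 2 and 28.0% in mouse 1, a mean of 28.1% ± 0.198 (SD, n = 2). Forms with the exon of 111 bases took 29.6% and 30.4%, and forms with neither took 46.6% and 44.7%. Opa1-208 carries both exons and counts in both classes. The direct quantification gave 35.5% and 34.95% for the first exon, 29.1% and 29.5% for the second, and 40.8% and 40.3% for neither. In all 4 estimates forms with neither exon were the largest class. Opa1-206, the main form of that class, is 6230 bases long, against 3230 for Opa1-201 and 3153 for Opa1-207, and ends further 3′. Reads from its added 3′ stretch can be given to it whatever exons their molecule held. The shares are therefore estimates for annotated forms and do not measure exon use alone. Opa1-207 is annotated without a stop codon, so its 3′ end is not represented in full.

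Vdac3 had a rare form with a change of a single codon. Vdac3-202 adds 3 bases at the end of an exon (chr8:22587550-22587552), in frame, which give it 852 coding bases against the 849 of Vdac3-201. It took 3.49% in mouse 2 and 6.30% in mouse 1, and 6.25% and 9.25% in the direct quantification. The junction of both forms is shown with 15 bases on each side and the added bases in capitals.
Vdac3-201: tcttgtagtggagtggaattttctacttca
Vdac3-202: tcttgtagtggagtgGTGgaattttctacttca

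In raw TPM all 9 expressed genes were higher in mouse 2. Nuclear protein-coding genes as a whole held 32.3% of all TPM for mouse 2 and 29.5% for mouse 1, so TPM differed between the mice for messenger RNA as a class. Counts were therefore scaled by TMM, a method that sets the bulk of genes to a ratio near 1, and expressed as a log2 ratio of mouse 2 over mouse 1 with an exact 95% counting interval. The interval covers counting error between these 2 libraries and not the spread between animals. Unlike TPM, these ratios of counts carry no correction for transcript length. When TPM was rescaled to nuclear protein-coding genes, Mfn2 was the furthest apart of the 9, with 196 in mouse 2 and 164 in mouse 1. Vdac2 had 210 and 185. Tspo, Vdac1 and Acbd3 were then lower in mouse 2, and the remaining expressed genes higher. In whole-gland RNA, fewer cells of a type and less RNA per cell cannot be told apart.

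After scaling, 6 of the 9 genes were higher in mouse 2 beyond counting error. Vdac2 stood at a log2 ratio of 0.16 (0.085 to 0.23), Opa1 at 0.14 (0.077 to 0.20) and Atad3a at 0.10 (0.001 to 0.20). Mfn2 stood at 0.098 (0.051 to 0.15), Vdac3 at 0.087 (0.016 to 0.16) and Dbi at 0.084 (0.020 to 0.15). Acbd3 and Tspo lay below 0, at -0.12 (-0.22 to -0.028) and -0.084 (-0.15 to -0.019), and the interval of Vdac1, at -0.035 (-0.076 to 0.007), held 0. So 6 intervals lay above 0 against 15.4% of the 17666 genes tested, and 2 lay below 0 against 15.8%. Abundant genes have narrow intervals, and among the 5540 genes averaging 1000 counts or more, a class that holds all 9, 25.2% lay above 0 and 23.5% below. The split depended on the scaling. Under total counts 6 intervals lay above 0 and 0 below, those of Tspo and Acbd3 then holding 0, and Vdac1 turned to 0.014. Under ERCC spike-in totals 3 lay above 0 (Vdac2, Opa1 and Mfn2) and 3 below, the third of these being Vdac1. Vdac2, Opa1 and Mfn2 lay above 0 under every scaling, filter and quantification run. The differences were small. None of the 9 genes was 1.5-fold apart between the mice, against 9.62% of genes tested, and all lay inside the 10th to 90th percentile of all ratios (-0.38 to 0.32). Both comparisons include genes averaging as few as 10 counts, whose ratios are noisier, and were not repeated among genes averaging 1000 counts or more. The median of the 9 was 0.087, against -0.0011 for all genes tested and 0.0058 for nuclear protein-coding genes.

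**Figure D3:**
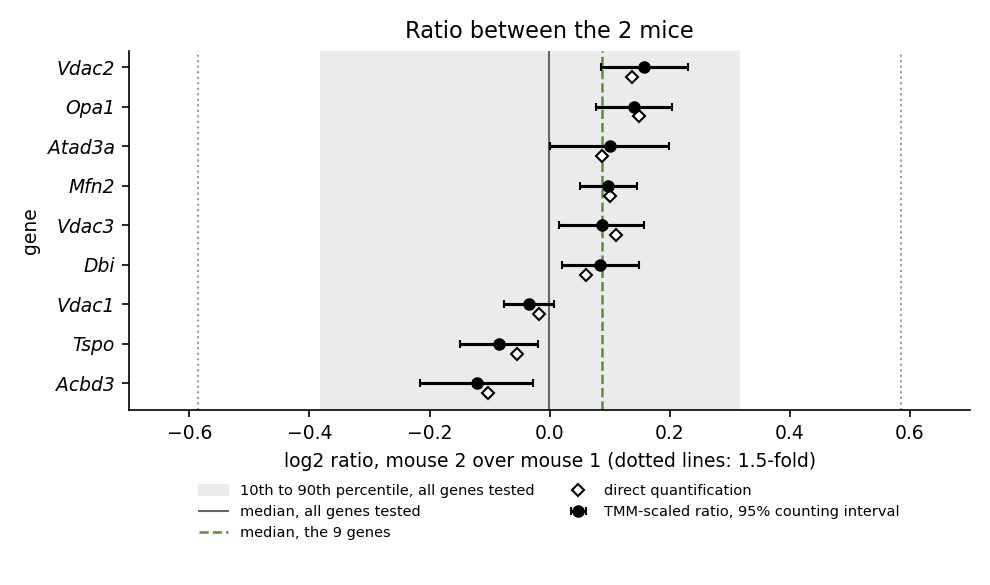
TMM-scaled log2 ratio of mouse 2 over mouse 1 for the 9 genes tested, with exact 95% counting intervals (black) and the ratio from the direct quantification (open diamonds). All points lie within the grey band from the 10th to the 90th percentile of all genes tested (-0.38 to 0.32) and inside the dotted 1.5-fold lines, with Vdac2 highest at 0.16 and Acbd3 lowest at -0.12.

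Cell markers also differed between these libraries. All 7 adipocyte markers were above 0, with a median of 0.74, a sum of 2474 TPM in mouse 2 and one of 1470 TPM in mouse 1, led by Cfd and Fabp4. The 5 tested red blood cell markers were below 0, with a median of -0.99. Cortex markers had a median of -0.085, at sums of 22730 TPM in mouse 2 and 21397 TPM in mouse 1, led by Star and Hsd3b1. Of these 8, 2 had intervals above 0 and 5 below. Scarb1, the lipoprotein receptor of cholesterol uptake, was the only cortex marker 1.5-fold apart, with 697 TPM in mouse 2, 975 TPM in mouse 1 and a log2 ratio of -0.63. The medulla markers had a median of -0.19, at sums of 1964 and 2091 TPM, led by Chga and Chgb. The part of these cell types in the ratios of the 9 genes was not tested.

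Both quantifications gave near levels for the 9 genes. The log2 ratio of the alignment-based over the direct TPM ranged from -0.26 for Tspo to 0.13 for Acbd3, with a median of -0.071 against 0.046 over all genes compared. None of the 9 was 1.5-fold apart, against 10.1% of the 14128 genes compared, a set that reaches down to a mean of 1 TPM in either quantification. For Tspo the gap had the same sign in both mice, -0.28 in mouse 2 and -0.25 in mouse 1, and for Dbi it was -0.21 and -0.19. These were the genes with the largest shift between transcripts.

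The partners of import and the enzymes that receive cholesterol were led by genes far above the 9. Of 16 listed, all reached 1 TPM in both mice, headed by Star at 5434 ± 435 TPM, Cyp11a1 at 2251 ± 47.0 TPM and Fdx1, the electron donor of CYP11A1, at 550 ± 50.3 TPM (SD, n = 2). Between the mice, 5 had intervals above 0 and 6 below, with a median log2 ratio of 0.0078. The ratio of Fdx1 was -0.42. Genes of proteins that bind VDAC or carry adenine nucleotides reached 1 TPM in both mice in 13 of 14 cases, led by the chaperone gene Hspa9 at 206 ± 33.8 TPM, Slc25a5 at 124 ± 17.3 TPM and the calcium channel gene Itpr1 at 64.2 ± 1.32 TPM. Of the 13 tested, 4 lay above 0 and 1 below. Hk2, a hexokinase that docks on VDAC1, was the only one 1.5-fold apart, with 32.2 TPM in mouse 2, 18.8 TPM in mouse 1 and a log2 ratio of 0.63 (0.57 to 0.70). The adipocyte markers given above moved in the same direction as Hk2, and their part in it was not tested.

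Genes of fusion, fission and cristae outside the set lay close to even between the mice. Of 18 listed, 17 were matched and tested, 2 lay above 0 and none below, with a median of 0.036. The highest were the prohibitin genes Phb at 107 ± 5.82 TPM and Phb2 at 94.1 ± 9.93 TPM and the cristae junction gene Immt at 89.0 ± 4.53 TPM. The proteases that cut OPA1 were unequal in level, with Yme1l1 at 39.7 and 34.8 TPM in mouse 2 and mouse 1, and Oma1 at 8.02 and 6.1 TPM. Among 19 other outer membrane genes, 6 lay above 0 and 5 below, with a median of 0.059. They were led by Cyb5b at 186 ± 13.2 TPM, Cyb5r3 at 123 ± 1.33 TPM and the carnitine transferase gene Cpt1a at 106 ± 7.07 TPM. Only Cyb5b in that list stood above Tspo and Vdac1 in both mice. Of 11 genes at contacts with the endoplasmic reticulum, 1 lay above 0 and 2 below, with a median of 0.025, led by the chaperone genes Hspa5 at 239 ± 6.3 TPM and Canx at 163 ± 4.36 TPM and by Bcap31 at 77.9 ± 8.29 TPM. Apart from Hk2, no gene of these lists was 1.5-fold apart.

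**Figure D4:**
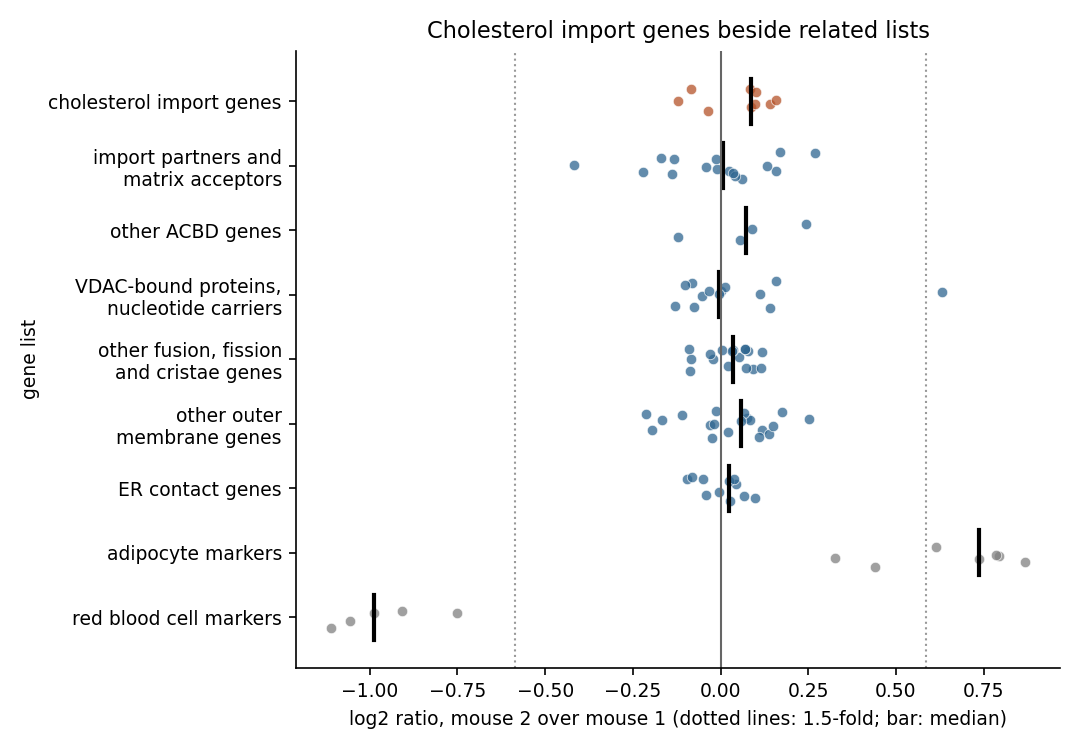
TMM-scaled log2 ratio of mouse 2 over mouse 1 for each tested gene (points) and the median (bar) of the cholesterol import genes, of 6 related lists and of the adipocyte and red blood cell markers. The import genes have a median of 0.087 and the related lists medians from -0.0046 to 0.073, while the markers lie at 0.74 and -0.99.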

How the data were processed

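Whole adrenal glands of 1 group were measured by total RNA sequencing, with 2 replicates. Per the labels, 300 ng of RNA entered a directional library with ribosomal RNA reduced and ERCC spike-in RNA added, and mm10 was used. Per the file headers, the authors' gene and transcript tables, made from transcriptome alignments, hold expected counts, TPM, FPKM and the percent of the gene given to each transcript (IsoPct). A second deposited table, made straight from the reads, holds estimated counts and TPM. Which aligner and quantifiers made them is not given in the sources. The annotation is GENCODE M21. Reads of CAST alleles were placed on the reference of another strain, which can lower their counts.

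Genes were matched by symbol. Expected counts were rounded for intervals. ERCC, phiX and numbered rows, which name no gene, held 0.527% of counts in mouse 2 and 0.503% in mouse 1 and were left out of library sizes. Log2 ratios used TMM in edgeR 4.0.16, with a prior count of 2, for genes averaging 10 counts or more. Intervals are exact Clopper-Pearson at 95%. The 1.5-fold threshold and 1 TPM were set by choice, and quantifications were compared on TPM plus 0.1. The ratio and interval were tested on simulated counts that held counting error alone. That checks the computation and cannot show how the interval covers the spread between animals. BLAST 2.17.0 was used to find copies. Python 3.11.15, pandas 2.3.3 and Biopython 1.88 served the remaining steps, and DESeq2 1.42.0 an alternative scaling.

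All 10 genes are named, with transcripts at a mean IsoPct of 10% or more, the 3 highest genes of each related list and any at least 1.5-fold apart, and the 2 highest markers of the lists discussed. Other transcripts and genes were named after their values were seen. The genes and lists were chosen with earlier results of these data known.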

Additional observations from a re-analysis of the deposited data

How the results depend on the processing

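The summed level of the 10 genes was 778 TPM on average, 836 TPM without replicate 1 and 720.1 TPM without replicate 2, and it was 2515 TPM when TPM was rescaled to nuclear protein-coding genes, a change of scale by construction. The number of genes whose counting interval left out 0 was 8, and it was 5 in the direct quantification, where the intervals of Tspo, Dbi and Atad3a held 0 and the cause was not tested. It stayed between 6 and 8 under the other scalings and count filters, and Atad3a was lost with a single changed filter or with TMM over nuclear protein-coding genes. The count of 9 genes at 1 TPM held at 0.5 TPM, at 10 TPM and in the direct quantification. No gene became 1.5-fold apart between the mice or the quantifications under any alternative run. The median log2 ratio ranged from 0.066 under ERCC scaling to 0.14 under total counts, and none of the 8 genes beyond counting error changed sign. Levels moved by more than 1 SD in the direct quantification for 3 of 10 genes, 2 up and 1 down. The leading transcript's share was lower there by more than 1 SD for 8 of 9 genes, and lower by less for Vdac1. Total count scaling raised all 9 log2 ratios alike, which took 2 of them out of their counting intervals. No paired analysis was possible because there was 1 group. Of the 10 genes, Tspo2 alone had too few counts for a ratio between the mice.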
